A study of Mus musculus with 6 samples.

Results

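A set of 9 phosphatase genes of the phosphoinositide and inositol phosphate pathway was followed in LSK cells, the lineage-negative, Sca-1+ and c-Kit+ fraction of mouse bone marrow that holds haematopoietic stem cells and early progenitors. They are Inppl1, Inpp5d, Inpp4a, Inpp4b, Inpp5a, Inpp5b, Inpp5e, Inpp5k and Synj1, 9 of the 24063 gene symbols counted. Inppl1 was picked because it differed between the genotypes in these same libraries, and the other 8 genes were picked by function with that difference known. All 9 passed the filter on low counts, as did 14145 genes in total. RNA had been sequenced from 3 Asxl2-/- mice and 3 control mice of strain C57BL/6. All 6 mice carried the Mx1-cre transgene and had received polyinosinic:polycytidylic acid (pIpC), a double-stranded RNA that provokes interferon and so switches on Cre from the Mx1 promoter. In the Asxl2-/- mice Cre removes loxP-flanked exon 11 of Asxl2, whereas the controls have wild-type Asxl2. Because Mx1-cre acts in any interferon-responsive cell, deletion in this model is not restricted to LSK cells. As the study describes, cells were taken 4 weeks after pIpC. An age was not given in the labels.

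Phosphoinositides are membrane lipids whose inositol ring is phosphorylated at different positions, and each pattern recruits a different set of proteins. Phosphoinositide 3-kinases make PIP3, which brings kinases such as Akt and Btk to the membrane of blood cells that respond to cytokines or antigen. SHIP1, encoded by Inpp5d, and SHIP2, encoded by Inppl1, remove the 5-phosphate of PIP3 and leave PI(3,4)P2. SHIP1 is found mainly in haematopoietic cells, while SHIP2 is found in most tissues. The 4-phosphatases encoded by Inpp4a and Inpp4b then turn PI(3,4)P2 into PI(3)P. The remaining 5-phosphatases act on other pools: Inpp5a on soluble inositol trisphosphate, Inpp5b and Inpp5e on lipids of the endomembranes and the cilium, Inpp5k on lipids of the endoplasmic reticulum and plasma membrane, and Synj1 on lipids of endocytic vesicles.

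The 250 bases upstream of the annotated start are shown for Inppl1 and Inpp5a, the members with separate genotype groups, and for Inpp5d, the close relative of Inppl1 whose groups overlapped. They are from RefSeq on GRCm38.p6, written 5′ to 3′ on the strand of the gene, and capitals mark the GC box GGGCGG or its reverse complement CCGCCC. The Inppl1 window is chr7:101838227-101838476 on the minus strand, the Inpp5a window is chr7:139388859-139389108 on the plus strand and the Inpp5d window is chr1:87620062-87620311 on the plus strand. The Inppl1 window belongs to the start of NM_010567. Inppl1 has another annotated start, that of NM_001122739 at chr7:101837824, whose window is not shown.
Inppl1: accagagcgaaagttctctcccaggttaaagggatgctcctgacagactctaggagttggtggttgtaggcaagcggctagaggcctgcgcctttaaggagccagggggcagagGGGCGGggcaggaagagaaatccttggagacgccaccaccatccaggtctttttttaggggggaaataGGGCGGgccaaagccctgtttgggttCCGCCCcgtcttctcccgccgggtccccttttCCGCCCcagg
Inpp5a: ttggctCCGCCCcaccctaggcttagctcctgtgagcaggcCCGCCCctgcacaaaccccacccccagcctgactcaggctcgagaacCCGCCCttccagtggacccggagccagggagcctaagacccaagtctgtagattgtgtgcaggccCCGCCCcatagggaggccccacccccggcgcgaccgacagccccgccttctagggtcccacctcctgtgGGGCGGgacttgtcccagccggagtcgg
Inpp5d: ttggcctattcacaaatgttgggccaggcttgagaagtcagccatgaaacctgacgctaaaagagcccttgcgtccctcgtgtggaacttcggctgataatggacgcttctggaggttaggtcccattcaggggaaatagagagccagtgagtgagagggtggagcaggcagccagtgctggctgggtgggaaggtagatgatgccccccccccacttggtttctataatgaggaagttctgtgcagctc
The Inppl1 window held 4 GC boxes, the Inpp5a window held 5 and the Inpp5d window held 0, and 32.7% of 32851 windows of this length upstream of annotated starts held at least 1. The GC box was chosen after these sequences were read, and the windows of the other members were not described. Nothing is therefore read from the GC box counts about the difference between the genotypes. The RUNX core TGTGGT or its reverse complement ACCACA, searched on both strands and with letters that cannot overlap a GC box, was absent from these 3 windows and present in 14.0% of all windows. The windows of Inppl1, Inpp5a and Inpp5d held 11, 14 and 5 CG dinucleotides, against a median of 6, and their GC content was 60.4%, 69.2% and 54.4%, against a median of 52.4%. A letter match describes the sequence and does not show that a factor binds there.

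The libraries held between 25528540 and 55032075 counts. The 3 higher totals belong to Asxl2-/- replicate 2 and control replicates 1 and 3, whose files list counts by exon, so that a read across a splice junction can be counted more than once after exons are summed. The other 3 files list counts by transcript, and the kind of file was a covariate in the comparison. Asxl2 itself had 3533, 4804 and 4213 counts in the knockout libraries and 4433, 3543 and 4105 in the control libraries (replicates 1 to 3, the order used for all values below). Its total is therefore no check of the deletion. In the files resolved by exon, exon 11 held 0.583% of the Asxl2 counts in Asxl2-/- replicate 2 (95% Wilson interval 0.404% to 0.841%) but 10.3% and 12.0% in control replicates 1 and 3. The groups also differed in sex: Xist, the RNA of the inactive X chromosome, had 49540 to 66689 counts in the Asxl2-/- libraries and 590 to 3194 in the controls, while 4 genes of the Y chromosome (Uty, Kdm5d, Eif2s3y, Ddx3y) had 0 to 2 counts in the former and 1026 or more in the latter. For every value below, genotype and sex cannot be told apart.

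Of the sort markers, Kit (c-Kit) lay at 359 to 421 CPM in the Asxl2-/- libraries and 280.0 to 431 in the controls, and Ly6a (Sca-1) at 52.6 to 69.1 and 40.5 to 260 CPM. CPM is a gene's count scaled to the normalised library size. None of the 5 sort markers tested differed past the threshold, an adjusted p of 0.05 in the edgeR quasi-likelihood test. Summed B-lineage markers, in contrast, lay at 102.3 to 104.9 CPM in the Asxl2-/- libraries and 28.7 to 38.9 CPM in the controls, and 4 of the 5 were raised. Those 4 were Cd79a of the B-cell receptor complex, the transcription factors Ebf1 and Pax5, and Vpreb1 of the surrogate light chain. Vpreb1 was near the threshold (edgeR adjusted p = 0.0495). Over all genes tested, 2.04% were raised past the threshold.

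Inppl1 transcript was 3.98-fold higher in Asxl2-/- LSK cells than in controls. It was counted on NM_010567, which has 29 exons on the minus strand of chr7:101822632-101838226 (mm10). The knockout libraries had 1136, 2653 and 1144 counts and the control libraries 704, 286 and 568. In CPM these were 40.3, 49.9 and 40.3 against 13.5, 9.93 and 12.0. The lowest knockout library thus lay well above the highest control library, in libraries of either kind of file. The log2 fold change was 1.99 (SE 0.102, n = 3 and 3), with 2.02 from gene-count files alone and 1.97 from exon-count files alone. Among the 288 genes raised past the threshold, 108 had a larger fold change than Inppl1, and Inppl1 ranked 7 by p-value among all genes tested. Because the gene was chosen for this difference, no p-value is given for it and nothing is read from its ranks. Inppl1 and Inpp5a were the 2 members of 9 past the threshold over all genes, both raised. Of the 14145 genes tested 2.34% passed, 2.04% raised and 0.304% lowered, and nothing is read from the comparison because the members were chosen on this contrast. They were likewise the 2 members whose groups did not overlap, where 15.4% of all genes tested had all knockout values above and 9.36% all below the controls.

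**Figure D1:**
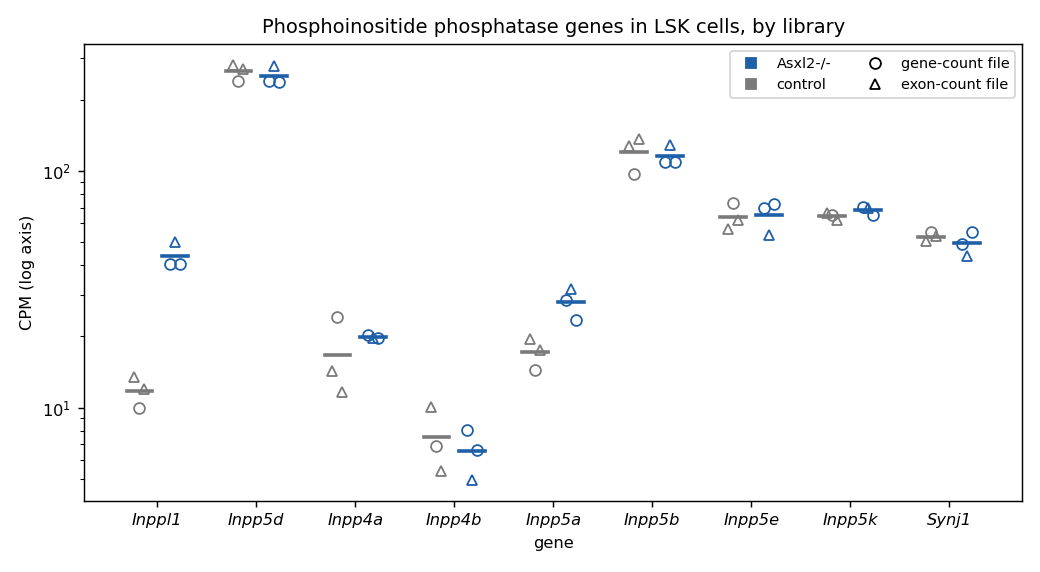
Normalised CPM (log axis) of each member in the 3 control (grey) and 3 Asxl2-/- (blue) libraries, with circles for gene-count files, triangles for exon-count files and a line at the arithmetic mean. Inppl1 and Inpp5a have knockout points that all lie above the control points, and in the other 7 genes the groups overlap.

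In bulk libraries, fewer cells of a type and less RNA per cell cannot be told apart. Several marker lists moved in the same libraries. Besides the B-lineage list above, the summed megakaryocyte markers were 276 to 787 CPM in the Asxl2-/- libraries and 136 to 331 in the controls. Of these markers 3 of 6 were raised (Vwf, Pf4 and Ppbp), against 2.04% of all genes tested. Pf4 was near the threshold (edgeR adjusted p = 0.0496). Epithelial markers summed to 35.6 to 44.8 against 12.3 to 15.8 CPM, nearly all of it Krt18, the only 1 of the 4 tested that was raised; Epcam was below 0.7 CPM and Krt19 at or near 0 in every library. Stromal markers summed to 123 to 289 against 33.5 to 179 CPM and endothelial markers to 102 to 142 against 79.9 to 103 CPM, with none of either list past the threshold. Erythroid markers went the other way, at 364 to 520 against 734 to 1029 CPM, also with none past the threshold. Mature myeloid markers (2027 to 5387 against 2103 to 6392 CPM), neural markers (90.9 to 211 against 109 to 152 CPM) and T and NK markers (8.64 to 10.7 against 10.7 to 20.5 CPM) also had none past the threshold. The part of these cells in the Inppl1 values was not tested.

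The higher level ran along the whole Inppl1 transcript. In the 3 libraries resolved by exon, all 29 exons had a higher CPM in Asxl2-/- replicate 2 than in either control. Over the 27 exons with at least 10 counts in each of these libraries, the log2 ratio to the control mean had a median of 1.99 and lay between 1.45 (exon 15, with 73 counts against 27 and 23) and 2.61 (exon 8, with 79 counts against 11 and 13). Exon 27, the exon with the most counts, which spans 667 bases (chr7:101823893-101824559), had 285 counts in the knockout library and 71 and 54 in the controls. That was 10.7%, 10.1% and 9.51% of the Inppl1 counts in each, with Wilson intervals that overlap. For none of the 29 exons did the interval of the share in the knockout library lie apart from both control intervals. The annotation gives Inppl1 a pair of starts: the first exon of NM_010567 had 10, 6 and 2 counts in Asxl2-/- replicate 2 and control replicates 1 and 3, and that of NM_001122739 had 6, 2 and 1, too few to tell which start was used. Inppl1 shares 95 bases of exon with Phox2a, a neural homeobox gene, which had 0 to 8 counts per library. Only 1 knockout library is resolved by exon, so the profile has no replicate check.

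**Figure D2:**
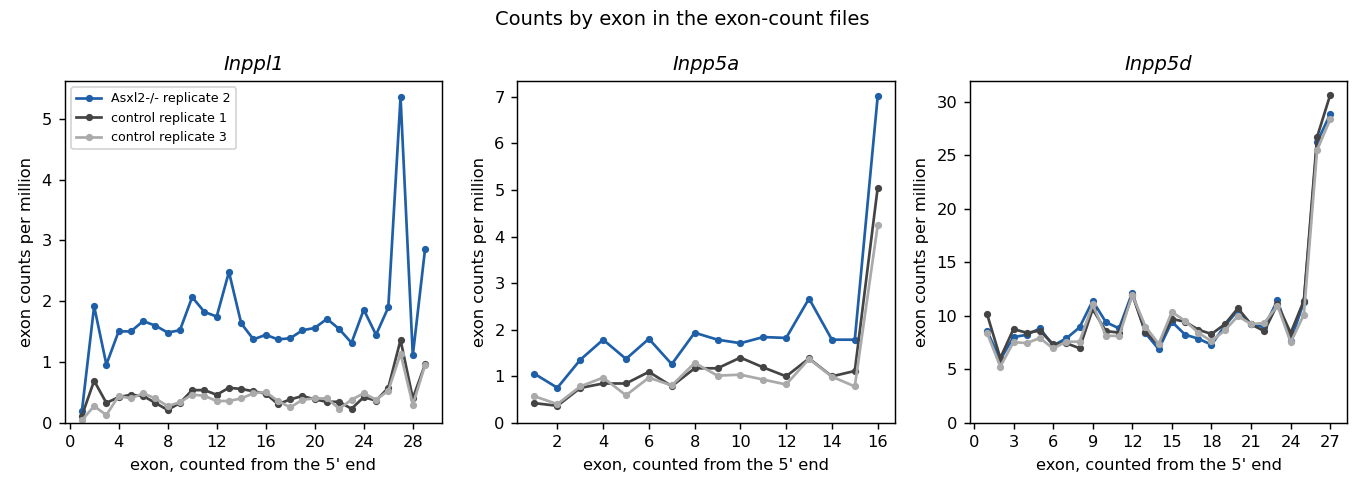
CPM in each exon of Inppl1, Inpp5a and Inpp5d, numbered from the 5′ end, in Asxl2-/- replicate 2 (blue) and control replicates 1 and 3 (greys), joined by lines for reading. The knockout line lies above the controls at all 29 Inppl1 exons and all 16 Inpp5a exons, and runs among them in Inpp5d.

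Inpp5d, which encodes SHIP1 and was the most abundant member, showed no comparable difference. Its CPM was 239.9, 276 and 237 in the Asxl2-/- libraries and 281, 239 and 269.6 in the controls. The groups overlapped, with a log2 fold change of -0.00 (SE 0.0764). Over its 27 exons, 8 were higher in the knockout library than in both controls and 6 were lower, with a median log2 ratio of 0.01. The ratio between the SHIP genes moved accordingly. Per kilobase of exon, Inppl1 was 4.76%, 4.11% and 4.398% of Inpp5d in the controls and 16.6%, 17.8% and 16.9% in the Asxl2-/- libraries. Since this ratio is taken within a library it does not depend on the scaling between libraries, and SHIP1 transcript remained the larger in all 6.

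The genotype groups overlapped for the 4-phosphatases downstream of SHIP. Inpp4a had 20.3, 19.7 and 19.7 CPM in the Asxl2-/- libraries and 14.2, 24.2 and 11.7 in the controls. Its knockout values lay inside the control range, and the log2 fold change was 0.17 (SE 0.210) overall but -0.27 by gene-count and 0.61 by exon-count files alone. Inpp4b, a gene of low level here, had 8.05, 4.94 and 6.59 CPM against 10.1, 6.91 and 5.42, with a log2 fold change of -0.29 (SE 0.325). Long and short 3′ ends are annotated for these genes. In Asxl2-/- replicate 2 and control replicates 1 and 3, the last exon of the long form of Inpp4b had 116, 174 and 100 counts against 1, 3 and 3 for the short form. For Inpp4a it was 297, 263 and 155 against 37, 27 and 18, so most counts at the 3′ end were on the long form in these libraries. These counts are not adjusted for length. The long and short last exons span 5315 and 1354 bases in Inpp4b and 2614 and 994 bases in Inpp4a.

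Inpp5a, which dephosphorylates the second messenger inositol trisphosphate, was the other member with separate groups. Its CPM was 28.5, 31.7 and 23.5 among the knockouts and 19.6, 14.4 and 17.5 among the controls. All knockout values exceeded all control values, and the log2 fold change was 0.81 (SE 0.124), or 0.84 and 0.77 in the gene-count and exon-count files alone. All 16 exons were higher in Asxl2-/- replicate 2 than in both controls, with log2 ratios from 0.49 to 1.09. Such a tally rests on 1 knockout library and is not particular to members with separate groups. In Inpp4a, whose groups overlapped, 22 of 26 exons lay above both controls and 0 below. Its median log2 ratio was 0.73 over exons with at least 10 counts. In Synj1, 20 of 32 exons lay below both controls. Inpp5a shares 246 bases with Nkx6-2, which had 34 to 71 counts in every library. Inpp5a fell short of the threshold in 8 of 17 other settings, among them 5 of the 6 fits without 1 library. Inppl1 passed it in all 17, but these settings reuse the values on which it was chosen, so nothing is read from that.

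In the remaining members the groups overlapped. Inpp5b, related to the Lowe syndrome gene Ocrl, had 108.8, 129 and 109 CPM in the Asxl2-/- libraries and 128, 96.8 and 137 in the controls (log2 fold change 0.07, SE 0.0868). Inpp5e, mutated in Joubert syndrome, had 69.9, 53.8 and 72.6 against 56.7, 73.2 and 61.8 CPM (-0.09, SE 0.0838). The 3 exon-count libraries had the 3 highest values of Inpp5b and the 3 lowest of Inpp5e. Inpp5k had 70.7, 69.8 and 65.1 against 66.3, 65.3 and 62.0 CPM, so that 2 knockout values lay above the control range (0.09, SE 0.0833). Synj1, the synaptojanin of clathrin-coated vesicles, had 49.3, 43.6 and 55.3 against 50.6, 54.9 and 52.9 CPM (-0.16, SE 0.0966). The last exon of Inpp5e overlaps Pmpca, a mitochondrial peptidase gene, over 873 bases. This exon holds 1723 of the 4253 exon bases of Inpp5e and took 50.1% to 54.6% of its counts in the exon-count files. How many of these counts came from Pmpca was not tested, so the level of Inpp5e is uncertain. The 9 members had a median log2 fold change of 0.07, against 0.00 over all genes tested.

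Levels of different genes were compared as CPM per kilobase of exon. In control LSK cells Inpp5d stood first at 53.3 ± 4.34 (SD, n = 3), followed by Inpp5b at 31.9 ± 5.56, Inpp5k at 24.4 ± 0.855 and Inpp5e at 15.02 ± 1.99. Synj1 at 7.45 ± 0.310, Inpp5a at 6.08 ± 0.913, Inpp4a at 2.85 ± 1.13, Inppl1 at 2.37 ± 0.359 and Inpp4b at 0.893 ± 0.285 came below them. Of the neighbours in this order, only Inpp4a and Inppl1 had overlapping ranges. These levels were not adjusted for the kind of file, so the SDs include any difference between file kinds. In control replicate 2, the gene-count file, Inpp5b was at 25.6 and Inpp5k at 24.7. In the exon-count control replicates 1 and 3, Inpp5b was at 33.9 and 36.2 and Inpp5k at 25.1 and 23.5. The fitted 3.98-fold difference of Inppl1 allows for the kind of file, whereas the means here do not. In Asxl2-/- cells Inppl1 reached 8.71 ± 1.10, sixth of the 9, next to Inpp5a at 9.87 ± 1.47. Inppl1 accounted for 1.81%, 1.47% and 1.63% of the summed level of the 9 genes in the controls and 5.38%, 6.22% and 5.50% in the Asxl2-/- libraries.

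**Figure D3:**
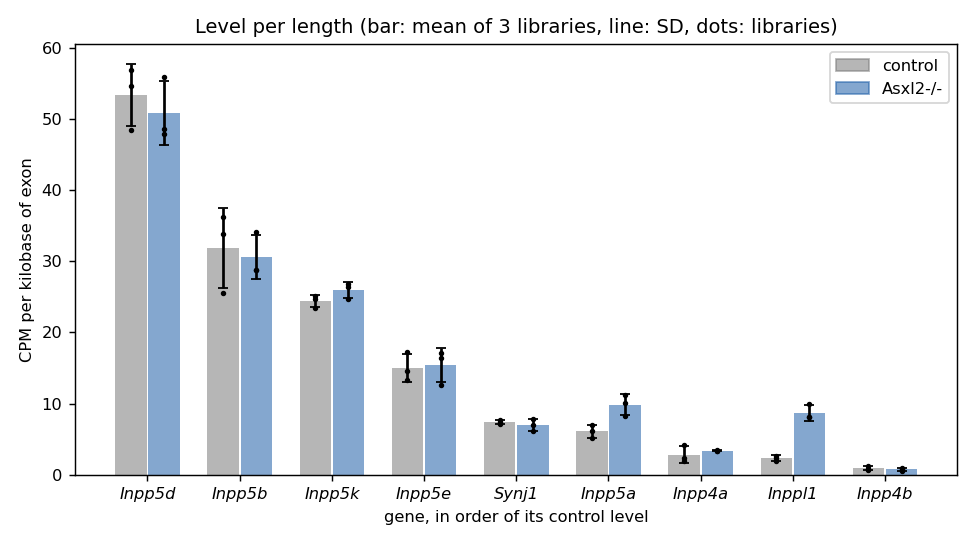
Level per length of each member, as CPM per kilobase of exon, in order of the control level. Bars are means of 3 libraries, lines the SD and dots the libraries, and Inppl1 goes from 2.37 in control (grey) to 8.71 in Asxl2-/- (blue). Values are not adjusted for the kind of file.

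Other genes of phosphoinositide and inositol phosphate signalling were taken from a list of 91, of which 89 were in the files and 88 were tested. Past the threshold were 5 of 88 genes (5.68%), 4 raised and 1 lowered, against 2.34% of all genes tested. The list was drawn up with earlier results of these data known, so nothing is read from this comparison. The median log2 fold change of the list was 0.02. By role, 0 of 4 other 5-phosphatases, 0 of 8 3-phosphatases, 0 of 4 other 4-phosphatases and Sac1-type phosphatases, 1 of 14 PI3-kinase genes, 1 of 11 PI4- and PIP-kinases, 2 of 21 effectors of PIP3 and PI(3,4)P2, 0 of 15 SHIP partners and 1 of 11 inositol phosphate receptors and enzymes passed. The edgeR test gave 25 of the 88 genes an unadjusted p under 0.05, where 27.7% of all genes tested had one, and DESeq2 called 19 of the list and 16.5% of all genes tested.

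Among the kinases, Pik3c2a rose. It encodes a class II PI3-kinase, which acts in vesicle traffic. It had 31.4, 21.9 and 26.4 CPM in the Asxl2-/- libraries and 12.8, 14.6 and 9.58 in the controls (fitted log2 difference 0.98, SE 0.156, edgeR adjusted p = 0.0401). Pik3cd, the leukocyte class I catalytic subunit and the most abundant gene of its group, had 180 to 233 CPM against 183 to 213 (0.09, SE 0.128). Pip4k2a, which phosphorylates PI(5)P, was the gene that fell, from 102, 120 and 105 CPM in the controls to 88.1, 78.4 and 88.8 (-0.42, SE 0.0727, edgeR adjusted p = 0.0487). Pi4ka, a PI4-kinase of the plasma membrane and the most abundant of its group, gave 0.02 (SE 0.0789).

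Both effectors past the threshold bind the lipids that SHIP consumes or makes. Dapp1, an adaptor of B-cell receptor signalling with a PH domain, had 452, 386 and 413 CPM against 274, 221 and 242 (fitted log2 difference 0.77, SE 0.126, edgeR adjusted p = 0.0430). Tec, a PH-domain tyrosine kinase, had 51.8, 63.7 and 44.6 against 42.7, 27.1 and 33.6 CPM (0.79, SE 0.131, edgeR adjusted p = 0.0443). Itpr3, a receptor for inositol trisphosphate on the endoplasmic reticulum, had 76.7, 93.5 and 75.5 against 67.9, 46.9 and 53.6 CPM (0.66, SE 0.114, edgeR adjusted p = 0.0487). In each of these genes the groups did not overlap, as for 24.8% of all genes tested. None of the 5 list genes stayed past the threshold without Asxl2-/- replicate 1, without Asxl2-/- replicate 3, without control replicate 2 or without control replicate 3, although each kept its direction in all 17 settings.

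Other listed genes did not pass the threshold. Sorbs3, which encodes vinexin, a SHIP2-binding adaptor, had 32.5, 31.1 and 21.5 CPM against 15.6, 6.04 and 9.45 (fitted log2 difference 1.72, SE 0.320, edgeR adjusted p = 0.0541). Flna, the filamin that anchors SHIP2 and the most abundant partner, gave -0.06 (SE 0.108). Ocrl, an X-linked 5-phosphatase, had 131, 129 and 155 against 108, 81.5 and 88.3 CPM (0.60, SE 0.146, edgeR adjusted p = 0.0787). Mtmr4, a 3-phosphatase of endosomes, had 57.4, 62.1 and 66.4 against 74.2, 111 and 88.5 CPM (-0.62, SE 0.140, edgeR adjusted p = 0.0740), and Mtmr3, the most abundant of that group, gave 0.08 (SE 0.0769). Tmem55b, a 4-phosphatase of PI(4,5)P2, gave -0.14 (SE 0.0927) and Minpp1, which degrades higher inositol phosphates, gave -0.63 (SE 0.268, edgeR adjusted p = 0.191).

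**Figure D4:**
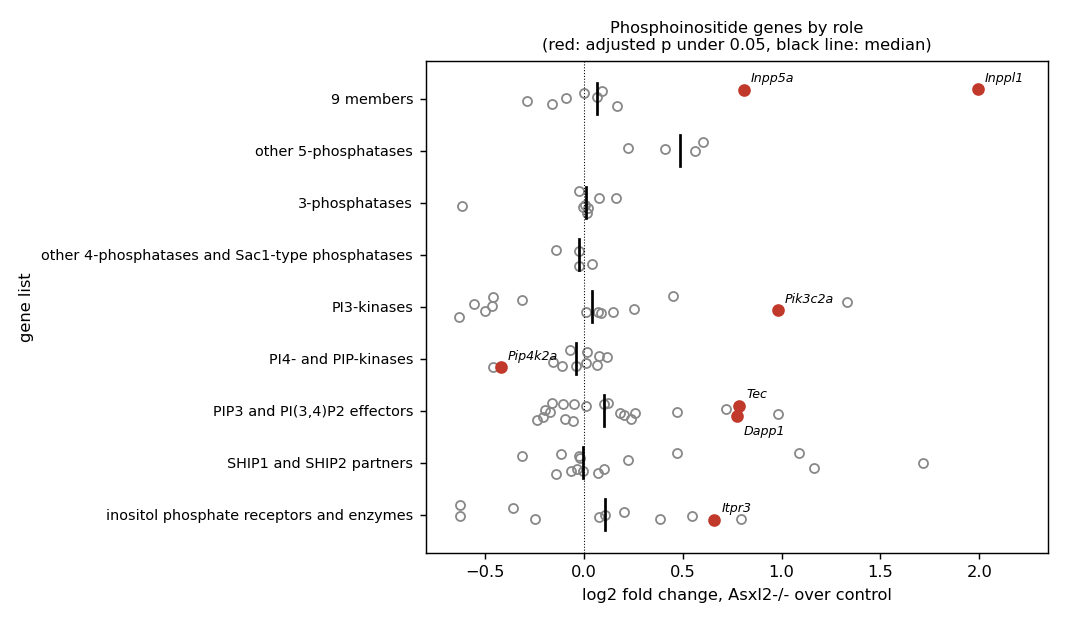
Log2 fold change (Asxl2-/- over control) of the 9 members and of the 88 listed pathway genes tested, 1 point a gene, by role; red points have an edgeR adjusted p under 0.05 and black lines are medians. Inppl1 lies furthest to the right at 1.99, and most points lie near 0. Vertical scatter within a row only separates points.

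Within 250 kb of Inppl1 lay 15 genes, 13 of them tested, of which 0 passed the threshold in edgeR, with 2 at an unadjusted p under 0.05 and 1 past the threshold by DESeq2. Over all genes tested these shares were 2.34%, 27.7% and 16.5%. Their log2 fold changes had a median of 0.10. The nearest on the 5′ side was Folr2, a folate receptor of macrophages. The end of Folr2 closer to Inppl1 lies 1.76 kb away, a distance taken without regard to strand. Folr2 had only 18, 17 and 8 counts in the Asxl2-/- libraries and 6, 0 and 1 in the controls (2.96, SE 1.00, edgeR adjusted p = 0.132). Anapc15, a subunit of the anaphase-promoting complex and the gene DESeq2 called, had 28.7, 41.8 and 27.3 against 45.2, 38.0 and 52.4 CPM (-0.33, SE 0.107, edgeR adjusted p = 0.124). Clpb, the nearest tested gene on the 3′ side, a mitochondrial chaperone, gave -0.08 (SE 0.0844). Il18bp, which encodes the interleukin-18 binding protein, gave -1.25 (SE 0.560), Art2b gave 0.85 (SE 0.577) and Lrrc51 gave 0.47 (SE 0.254). Trpc2 gave 0.40 (SE 0.244), Numa1, of the mitotic spindle, 0.18 (SE 0.104), Rnf121 -0.28 (SE 0.137) and Lamtor1, of the lysosomal Ragulator, -0.27 (SE 0.117). Tomt, Xndc1 and Xntrpc lay between -0.11 and 0.13. Xntrpc spans both Xndc1 and Trpc2, and reads in any exon that it shares with them cannot be told apart.

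**Figure D5:**
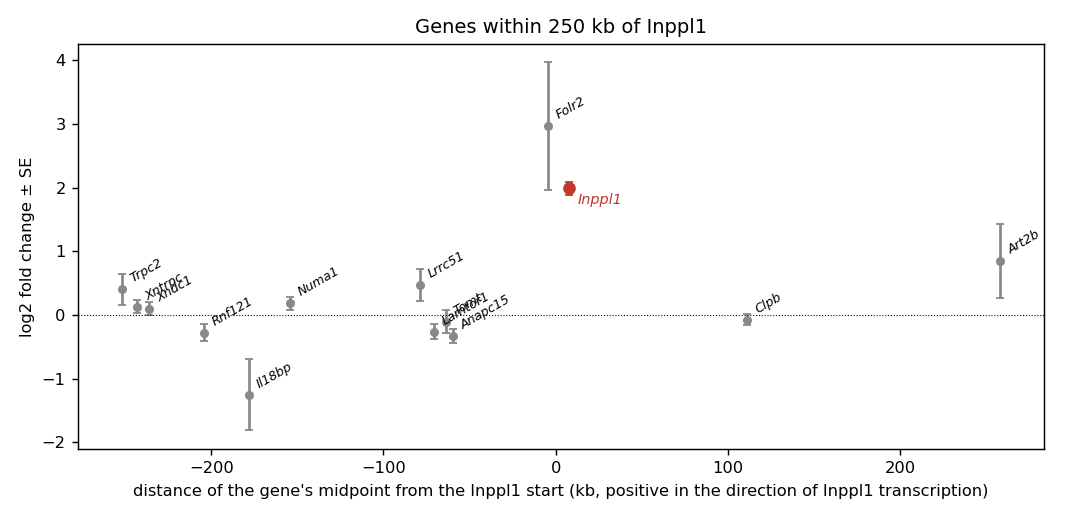
Log2 fold change ± SE of the 13 tested genes within 250 kb of Inppl1 (grey) and of Inppl1 (red), against the distance in kb of each gene's midpoint from the Inppl1 start. Folr2 at 2.96 has an SE of 1.00, and the other 12 genes lie between -1.25 and 0.85.

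The 5 genes whose pattern was most like that of Inppl1 over the 6 libraries, by Pearson correlation of log2 CPM after removal of the file-kind effect, were Mid1, Slc25a29, Ypel2, Spef1 and Ankrd24, with r of 0.999 for each. Mid1, an X-linked ubiquitin ligase, had 3.65, 5.39 and 3.38 CPM in the Asxl2-/- libraries and 0.825, 0.382 and 0.654 in the controls. Ypel2 had 15.4, 8.42 and 14.7 against 4.26, 7.40 and 4.01 CPM and Spef1 had 9.86, 9.24 and 10.05 against 4.51, 4.86 and 4.45 CPM. Slc25a29, a mitochondrial carrier, and Ankrd24 had log2 fold changes of 0.58 and 0.62. Among the members Inpp5a had the highest r with Inppl1, 0.979, which 300 genes exceeded. The points are 6 libraries in separate genotype groups, so these values mainly restate the difference between the groups.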

How the data were processed

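Transcript abundance was measured by RNA sequencing of sorted LSK cells from 3 Asxl2-/- and 3 control mice, poly(A)-selected and unstranded per the methods of the study. The authors deposited raw counts on mm10 with RefSeq transcripts, per transcript in 3 libraries and per exon in 3. STAR, featureCounts and DESeq2 are named in the submitters' processing notes, without roles or versions. Each symbol was represented by its transcript with the longest summed exon length, and exon counts were summed. Isoforms and overlapping genes share reads, and unstranded reads do not separate antisense genes.

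The 6 libraries were fitted in edgeR 4.0.16 (R 4.3.3) by quasi-likelihood, with TMM scaling, filterByExpr and file kind as covariate, leaving 3 residual degrees of freedom. Two-sided p-values were adjusted by Benjamini-Hochberg over all 14145 genes tested, with a threshold of 0.05. SEs derive from the fold change and F statistic. Log2 CPM used a prior count of 2. Wilson 95% intervals cover counting error only. GC content, for 87.6% of genes tested, came from GENCODE transcripts.

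Named genes were all members, the listed pathway genes past the threshold, the gene with the smallest p-value and the most abundant gene of each role, genes within 250 kb of Inppl1, and the 5 genes most correlated with it. The members and lists were chosen with earlier results of these data known. Certain genes are not reported here. Alternatives were DESeq2 1.42.0, other scalings, filters, covariates and transcripts, GC and length trends, either kind of file on its own, and omission of each library. Those for the neighbours of Inppl1 and for Inpp5e without its last exon were added after seeing the data.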

Additional observations from a re-analysis of the deposited data

How the results depend on the processing

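The log2 fold change of Inppl1 was 1.83 to 2.09 over the alternatives and 1.96 to 2.04 when each library was left out in turn. It moved by more than the spread between replicates with library size only (2.09), without the file-kind covariate (1.88), with the replicate number as a block in place of the file kind (1.88), and with the length trend (1.83) or GC trend (1.83) removed. Removing the length or GC trend shifted the median of all genes to -0.10 or -0.08. The number of members past the threshold went from 2 to 1 with library size only, without the file-kind covariate and with the block in place of the file kind, and was 1 to 2 with each library left out. The count of pathway genes, 5 as reported, was 19 by DESeq2, 0 with library size only, 3 without the covariate and 0 to 16 with a library left out. The count over all genes was 2329 by DESeq2 (50.7% of them raised, against 87.0% as reported), 161 with library size only and 9 to 1312 with a library left out, the lowest without control replicate 3 and the highest without control replicate 1. Neighbours past the threshold, 0 as reported, numbered 1 by DESeq2 and 0 to 0 with a library left out. The cause of these shifts was not tested.

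With a replicate block added to the file kind, 34 pathway genes, 4 neighbours (Anapc15, Folr2, Il18bp and Lamtor1) and 5179 of all genes were past the threshold, in a fit with 1 residual degree of freedom. With the block in place of the file kind, 2 pathway genes and 380 of all genes were. Same-numbered libraries deviated from their group means with correlations of 0.29, -0.01 and -0.00. The file-kind effect was left in these values, and each same-numbered pair holds 1 gene-count and 1 exon-count file. The correlations therefore cannot decide whether the numbers pair the libraries, and the main comparison treated the libraries as unpaired.

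The sign of Inpp5d, Inpp4a, Inpp4b, Inpp5b, Inpp5e and Inpp5k changed in at least 1 alternative, whereas Inpp5a (0.70 to 0.90) and Synj1 (-0.36 to -0.06) kept theirs. In control replicates 1 and 3, the exon-count files, Inpp5e was at 13.3 and 14.5 CPM per kilobase. Without its last exon it was at 11.2 and 11.1 in the same libraries.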
